A study of Mus musculus with 6 samples.

Results

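Antigen processing was followed through 10 genes in BV2 cells: the immunoproteasome subunit genes Psmb8, Psmb9 and Psmb10, the proteasome activator genes Psme1 and Psme2, the peptide transporter genes Tap1 and Tap2, the loading factor gene Tapbp, the class I light chain gene B2m, and Cd74, which encodes the invariant chain of MHC class II. Their probes were found by gene symbol in the array's platform annotation, which writes them in capitals (PSMB8, PSMB9, PSMB10, PSME1, PSME2, TAP1, TAP2, TAPBP, B2M and CD74). All 10 genes had at least 1 probe, and Cd74 had 3, which gave 12 probes of 26423 on the array and 10 genes of 17742 named. BV2 cells are mouse microglia made to grow without end in culture, where microglia are the macrophages that live in the brain, so the values describe a cell line and not the tissue. Cells were given adenine, a nucleobase that the purine salvage pathway turns into AMP, for 1 h. The 6 single-colour arrays form 3 groups with 2 arrays in each: untreated controls, a lower adenine dose and a higher adenine dose. The dose is 20 or 80 µM in the sample titles and the treatment protocol but 80 or 250 µM in the sample characteristics, so the doses are named here by their order alone. Whether both arrays of each group stem from different cultures is not stated in the titles, and p-values measure only the spread between these arrays.

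Cells cut their own proteins into peptides with the proteasome, whose core carries catalytic subunits that the inducible subunits encoded by Psmb8, Psmb9 and Psmb10 can replace. The resulting peptides are pumped into the endoplasmic reticulum by the transporter TAP, a pair of the Tap1 and Tap2 proteins, and tapasin, the product of Tapbp, bridges TAP to class I molecules that wait for a peptide. MHC class II molecules follow another route, in which the invariant chain Cd74 blocks their groove until proteases in the endosome remove it. In microglia and other macrophages these genes are best known as targets of interferon gamma.

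The deposited values are spot intensities on a linear scale, with array medians of 125 to 170 units. They were quantile-normalized between arrays, floored at 1 unit and put on the log2 scale. Normalized intensities are given below in units, and changes as differences of log2 values with their standard error. Over probes above the median, Pearson's r was 0.9894 between the higher-dose arrays, 0.9287 to 0.9406 between a higher-dose array and any other, and 0.9782 to 0.9858 among the control and lower-dose arrays, so the higher-dose pair stood apart. Of 11 microglia and macrophage markers measured of 14 listed, 9 lay above the array median on every array, and Cx3cr1 and Sall1 did not. The same held for 2 of 6 dendritic cell markers, 2 of 7 lymphocyte markers, 1 of 3 neuron markers and 0 of 4 astrocyte markers.

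At the higher dose, 5 of the 10 genes rose and 0 fell relative to control, at an adjusted p of 0.05 over all probes. These were Psmb8, Psmb9, Psmb10, Psme1 and Cd74. Over the whole array 5.55% of probes rose and 5.06% fell in this comparison. The higher-dose arrays lay above both controls in 7 of 10 genes and below both in 2 (Tap2 and Tapbp), against 28.8% and 31.3% of all probes. The median log2 change was 0.77 over the 10 genes and -0.01 over all probes. The peptide transport and loading genes Tap1, Tap2 and Tapbp had negative values (log2 -0.36, -0.38 and -0.32), none past the threshold. The 5 calls rest on all 4 control and higher-dose arrays. A fit without control replicate 1, control replicate 2, higher-dose replicate 1 or higher-dose replicate 2 leaves 1 array in a group. In each of these fits the 5 calls were lost, as were nearly all calls over the whole array. Without either lower-dose array 3 passed, Psmb8, Psmb9 and Cd74, since Psmb10 and Psme1 moved to an adjusted p of 0.0524 and 0.0543. Over these 6 fits the log2 changes of the 5 genes stayed between 0.98 and 2.21.

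**Figure D1:**
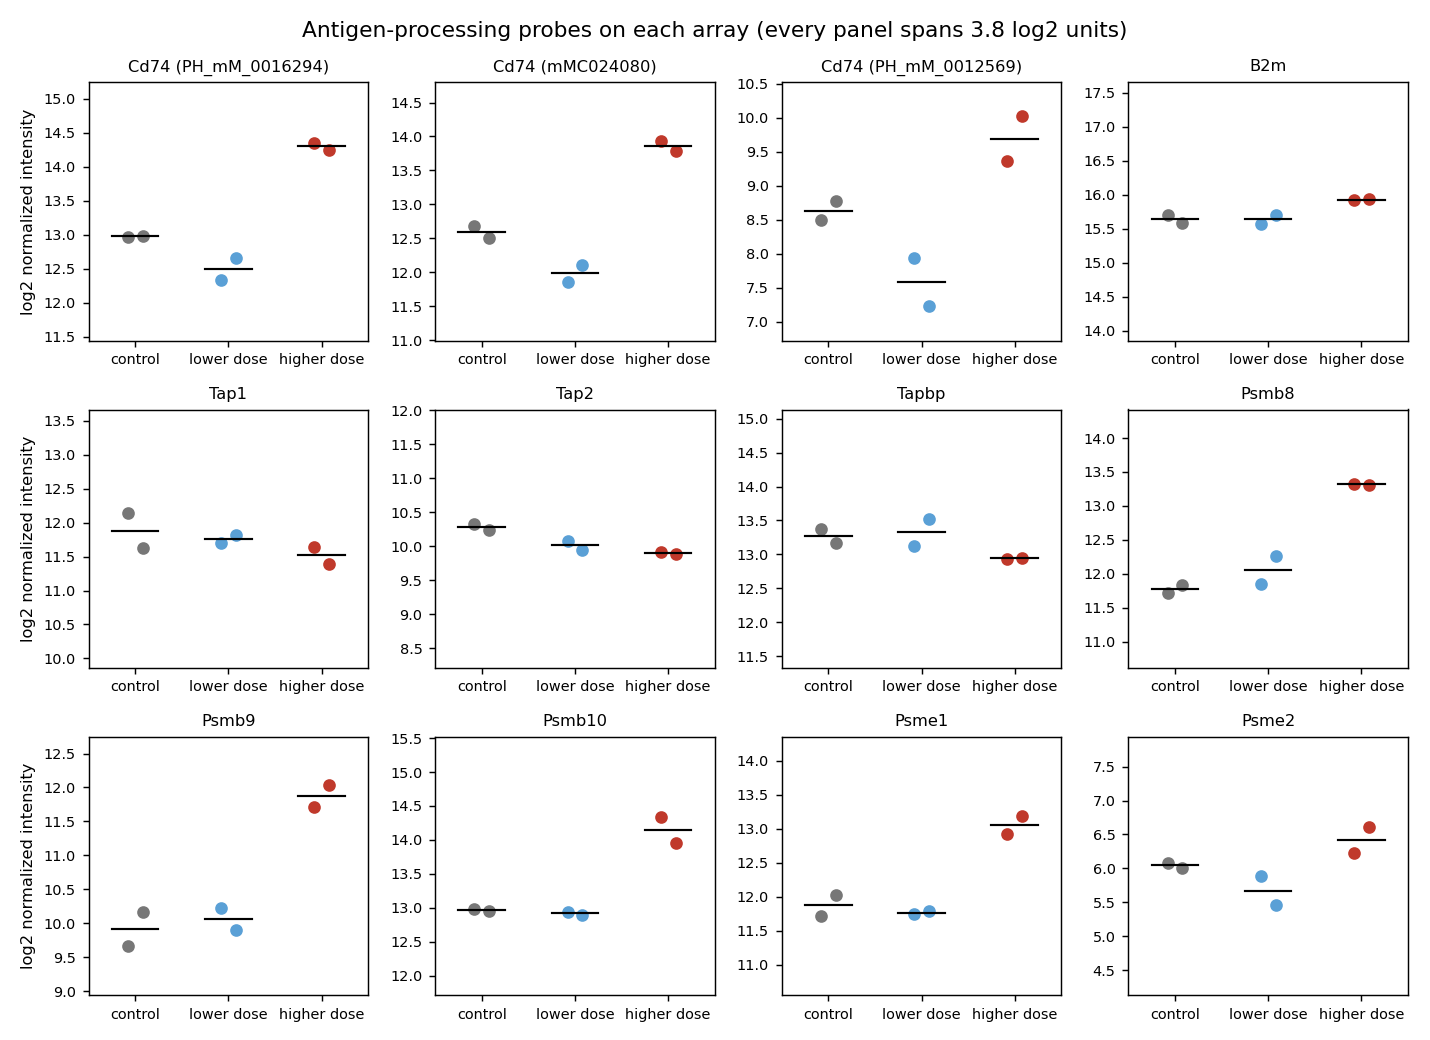
Normalized intensity on the log2 scale (y axis) of each of the 12 probes on the 2 control, 2 lower-dose and 2 higher-dose arrays (x axis); points are arrays and bars are group means. The higher-dose arrays of Psmb8, Psmb9, Psmb10, Psme1 and all 3 Cd74 probes lie above every other array. So do those of B2m and Psme2, which did not pass, while those of Tap1, Tap2 and Tapbp do not.

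The 3 inducible catalytic subunits of the proteasome all rose at the higher dose. Psmb8, which encodes the subunit β5i, read 3357 and 3653 units in the controls, 3703 and 4899 units at the lower dose and 10271 and 10131 units at the higher dose. The higher-dose arrays lay together, far above the other 4, and the change against control was 2.91-fold (log2 1.54 ± 0.19, SE, n = 2 per group, adjusted p = 0.0204). Psmb9, which encodes β1i, read 810 and 1155 units in the controls, 1201 and 956 units at the lower dose and 3346 and 4193 units at the higher dose. Its control and lower-dose arrays overlapped, and the higher-dose arrays stood above both groups (3.87-fold, log2 1.95 ± 0.25, adjusted p = 0.0212). Psmb10, which encodes β2i, read 8139 and 7956 units in the controls, 7889 and 7658 units at the lower dose and 20704 and 15892 units at the higher dose. The higher-dose arrays were the most spread of its 3 groups and were again above all others (2.25-fold, log2 1.17 ± 0.18, adjusted p = 0.0269).

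The activator PA28, a ring of the Psme1 and Psme2 proteins that caps the proteasome core and is likewise known to be induced by interferon gamma, was measured unevenly. Psme1 (PA28α) read 3382 and 4183 units in the controls, 3426 and 3548 units at the lower dose and 7761 and 9341 units at the higher dose. It rose 2.26-fold (log2 1.18 ± 0.19, adjusted p = 0.0278), with the higher-dose arrays above all others. The Psme2 (PA28β) probe was dim, below the median probe of the array, and the only member probe below it. It read 67.8 and 64.3 units in the controls, 59.2 and 44.1 units at the lower dose and 74.7 and 98.2 units at the higher dose. Its higher-dose arrays were also the highest, but the log2 change of 0.37 ± 0.23 did not pass (adjusted p = 0.349, 95% confidence interval -0.21 to 0.95).

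**Figure D2:**
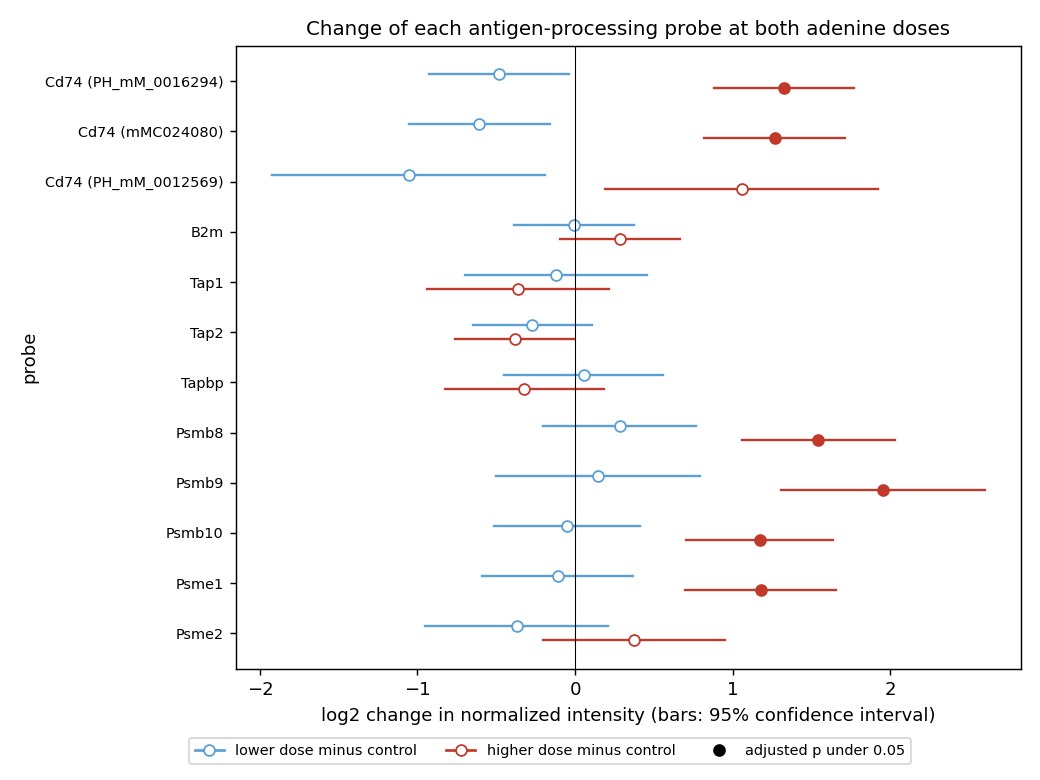
Log2 change in normalized intensity (x axis) of each of the 12 probes (y axis) for the lower dose minus control and the higher dose minus control; bars are 95% confidence intervals and filled points passed an adjusted p of 0.05. The 6 filled points, all for the higher dose, lie between log2 1.17 and 1.95, and no lower-dose point is filled.

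None of the transport and loading genes passed the test at either dose, and all had their lowest mean at the higher dose. Tap1 read 4504 and 3155 units in the controls, 3337 and 3600 units at the lower dose and 3204 and 2686 units at the higher dose. The groups overlapped, and the higher-dose change was log2 -0.36 ± 0.23 (adjusted p = 0.363, 95% confidence interval -0.94 to 0.22). Tap2 read 1290 and 1208 units in the controls, 1084 and 986 units at the lower dose and 964 and 949 units at the higher dose. Both doses lay below the controls, by log2 -0.27 ± 0.15 at the lower dose (adjusted p = 0.771) and -0.38 ± 0.15 at the higher dose (adjusted p = 0.165). Tapbp read 10575 and 9197 units in the controls, 8894 and 11817 units at the lower dose and 7849 and 7930 units at the higher dose. Its higher-dose arrays were the lowest of the 6, with a change of log2 -0.32 ± 0.20 (adjusted p = 0.353). The intervals of Tap1, Tap2 and Tapbp end at log2 0.22, -0.01 and 0.18. By the brightest probe of each gene, those of the 5 genes that rose start above this (0.70 for Psme1, the lowest). Those 5 were picked by passing in this same comparison, so their higher intervals were partly fixed by that choice. The intervals are a description and not a test between the genes. The dimmest Cd74 probe, which did not pass, has an interval that starts at 0.19, below the end of that of Tap1.

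B2m, the light chain shared by all classical class I molecules, was too bright to follow upward. As deposited it read 48086 and 44344 units in the controls, 47092 and 51016 units at the lower dose and 65483 and 65482 units at the higher dose. Both higher-dose values are at the ceiling of the scale, whose highest deposited value on any array was 65489 units, so the change as deposited is only a lower bound. On values as deposited the change was log2 0.50 (adjusted p = 0.13 in limma), which the ceiling can only have lowered. After normalization the estimate was 1.22-fold (log2 0.28 ± 0.15, adjusted p = 0.286), with a confidence interval of log2 -0.10 to 0.66. The bound set by the ceiling does not carry over to this normalized estimate. Neither change passed.

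Psmb9, Tap1, Psmb8 and Tap2 are neighbours in this order within the class II region of chromosome 17, with no other annotated gene between them in RefSeq (GRCm38.p6). Psmb9 and Psmb8 rose, while Tap1 and Tap2, which alternate with them, had negative values. Within each array, the log2 ratio of Psmb9 to Tap1, taken relative to its control mean, was 2.02 and 2.60 at the higher dose, against -0.51 and 0.51 in the controls. The ratio of Psmb8 to Tap2 was 1.92 and 1.93 at the higher dose, against -0.11 and 0.11 in the controls. The groups did not overlap in either ratio, and with 2 arrays against 2 the two-sided exact permutation test gave p = 0.333 for each, the smallest it allows.

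**Figure D3:**
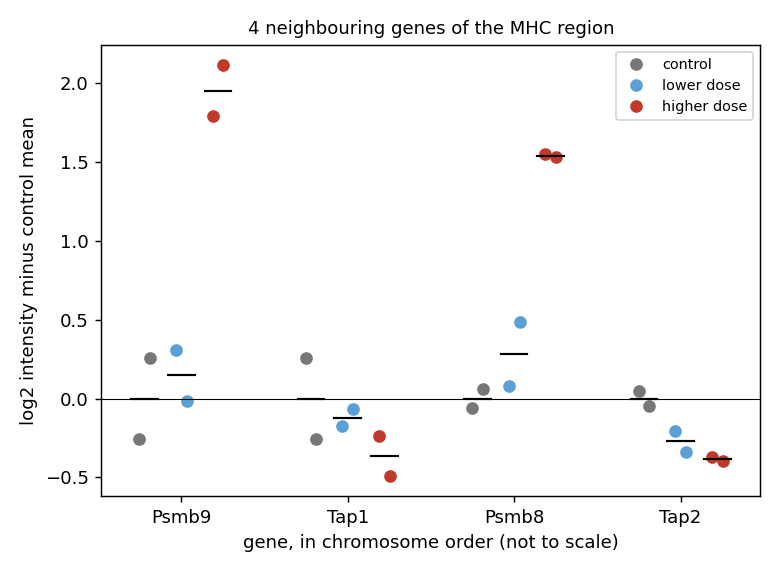
Log2 normalized intensity minus the control mean (y axis) of 4 neighbouring genes in chromosome order (x axis); points are the 2 arrays of each group and bars are group means. The higher-dose points of Psmb9 and Psmb8 lie above all others, and those of Tap1 and Tap2 lie below 0.

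Psmb9 and Tap1 are transcribed away from each other, from RefSeq start sites that lie 226 bases apart. Their promoter windows, each with 250 bases before the start and 50 after it, share 275 of 300 bases, and the Tap1 window is shown here because most of it also lies in the window of Psmb9, which rose, while the change of Tap1 did not pass. It is given on the Tap1 strand, at chr17:34187306-34187605, and its first 275 bases are the shared ones. Promoter activity was not measured. Capitals mark a CCAAT box (CCAAT) and a GC box (GGGCGG), read on either strand.
Tap1: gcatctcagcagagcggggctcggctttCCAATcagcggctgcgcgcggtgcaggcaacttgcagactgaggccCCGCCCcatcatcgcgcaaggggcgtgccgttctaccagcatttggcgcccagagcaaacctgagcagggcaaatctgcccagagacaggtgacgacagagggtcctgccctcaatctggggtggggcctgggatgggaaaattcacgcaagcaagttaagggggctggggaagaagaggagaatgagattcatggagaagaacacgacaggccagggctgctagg
Another 3 windows are shown for comparison, from Psmb8 at chr17:34197945-34198244, Psme1 at chr14:55578244-55578543 and B2m at chr2:122147437-122147736, all on the plus strand. Capitals mark a gamma-activated site (TTCNNNGAA) in Psmb8, an interferon-stimulated response element core (GAAA repeated after any 2 bases) and a GC box in Psme1, and in B2m the same core, a kappa B consensus and a CCAAT box, which do not overlap.
Psmb8: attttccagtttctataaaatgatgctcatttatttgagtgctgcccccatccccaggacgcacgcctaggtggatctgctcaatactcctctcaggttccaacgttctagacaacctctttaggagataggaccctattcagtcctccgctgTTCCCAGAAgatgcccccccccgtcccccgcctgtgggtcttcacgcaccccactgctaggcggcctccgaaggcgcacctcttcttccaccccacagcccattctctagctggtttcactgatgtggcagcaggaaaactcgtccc
Psme1: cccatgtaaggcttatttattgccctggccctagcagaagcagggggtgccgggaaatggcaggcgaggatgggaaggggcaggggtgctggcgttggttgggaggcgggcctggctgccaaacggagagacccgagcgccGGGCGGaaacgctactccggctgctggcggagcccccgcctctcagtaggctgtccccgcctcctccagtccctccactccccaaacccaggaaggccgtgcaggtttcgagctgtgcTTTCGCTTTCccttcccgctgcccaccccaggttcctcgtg
B2m: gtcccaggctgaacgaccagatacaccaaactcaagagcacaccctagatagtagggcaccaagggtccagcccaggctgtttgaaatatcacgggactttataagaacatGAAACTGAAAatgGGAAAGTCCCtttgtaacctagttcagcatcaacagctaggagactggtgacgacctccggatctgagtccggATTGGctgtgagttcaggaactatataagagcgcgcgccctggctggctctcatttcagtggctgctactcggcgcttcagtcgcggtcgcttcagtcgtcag

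These letters were searched on both strands of all 32851 RefSeq promoter windows of the same length. The response element core was present in 3.44% of them, the gamma-activated site in 8.3%, the kappa B consensus in 4.51%, the GC box in 35.7% and the CCAAT box in 37.4%. Of the 8 members with a window, the response element core was found in B2m, at position -139 from the start, and in Psme1, at position 9. The gamma-activated site was found in Psmb8 at position -97. The windows of Psmb9 and Tap1 held neither, and the Psmb10 window held none of the 5 motifs. A match is a description of the letters and not a measured site.

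Cd74 was the member with 3 probes, and all 3 gave the same order of groups: lower dose lowest, control between and higher dose highest. The brightest probe (PH_mM_0016294) read 7985 and 8114 units in the controls, 5159 and 6455 units at the lower dose and 20943 and 19411 units at the higher dose. The next (mMC024080) read 6563 and 5813 units in the controls, 3707 and 4425 units at the lower dose and 15693 and 14059 units at the higher dose. The groups did not overlap in either probe. At the higher dose Cd74 rose by the brightest probe (log2 1.32 ± 0.17, adjusted p = 0.0215) and by the next (2.40-fold, log2 1.27 ± 0.18, adjusted p = 0.0231). The third probe (PH_mM_0012569) was far dimmer, at 362 and 437 units in the controls, 245 and 150 units at the lower dose and 658 and 1040 units at the higher dose. Its higher-dose change of log2 1.06 ± 0.34 had more spread and did not pass (adjusted p = 0.115). The 3 probes read the same RNA on the same arrays and are not replicates of the treatment.

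Dendritic cells and B cells are other cell types rich in Cd74. The summed deposited intensity of 6 dendritic cell markers was 2517 to 3024 units at the higher dose, against 2029 to 2032 units in the controls. Most of that sum was Itgax, which microglia also express, at 2644 and 2156 units at the higher dose, against 1577 and 1493 units in the controls (log2 0.71 ± 0.17, adjusted p = 0.0609). Of the 6 markers 4 had negative values (median log2 -0.04), among them Flt3, at 24 and 20 units against 50 and 43 units. The 7 lymphocyte markers summed to 1259 to 1489 units at the higher dose, against 1090 to 1095 units in the controls, and 5 had positive values (median log2 0.12). The B cell marker Cd79a was at 456 and 390 units with the higher dose, against 351 and 373 units in the controls, and Ms4a1 read 13 and 11 units, against 9 and 11 units. Cd79b, also a B cell marker, read 240 and 187 units, against 153 and 134 units (log2 0.51 ± 0.18, adjusted p = 0.137). Among the T cell markers Cd3e stood at log2 0.60 ± 0.16 (adjusted p = 0.0798), while 2 of the 7 lymphocyte markers had negative values. None of the dendritic cell or lymphocyte markers passed. The microglia and macrophage list summed to 111254 to 122038 units at the higher dose, against 70428 to 81975 units in the controls, but 7 of its 11 markers had negative values (median log2 -0.14). The sum is dominated by Cd68, at 65484 and 49989 units against 29446 and 33963 units, with 1 higher-dose array at the ceiling, and by Trem2, at 22542 and 29284 units against 7492 and 11915 units. Aif1 (log2 2.07 ± 0.16, adjusted p = 0.0167) and Itgam (log2 0.77 ± 0.16, adjusted p = 0.0435) rose, while Csf1r stood at -0.48 ± 0.21 (adjusted p = 0.202) and Adgre1 at -0.49 ± 0.18 (adjusted p = 0.151). The part of these in the Cd74 result was not tested. The cultures are of the BV2 line, treated for 1 h. These markers are therefore given as RNA levels and not as counts of other cell types. Each array reads RNA of a whole culture, and RNA per cell was not measured.

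Some genes of the constitutive proteasome also rose at the higher dose. The list holds 14 core subunit genes, of which 12 had a probe. Of these 3 rose and 0 fell, where 5.55% and 5.06% of all probes did, and all 12 had positive values (median log2 0.59, against -0.01 over all probes). The counterparts that the inducible subunits replace were among them: Psmb5 (2.00-fold, log2 1.00 ± 0.21, adjusted p = 0.0456) and Psmb7 (1.79-fold, log2 0.84 ± 0.16, adjusted p = 0.0373) rose, as did the structural subunit Psma7 (log2 0.87 ± 0.19, adjusted p = 0.0496). Psmb1 stood at log2 0.80 ± 0.19 (adjusted p = 0.0625), and at 0.59 ± 0.16 by its other probe (adjusted p = 0.0783). Psmb6, with 1 higher-dose array at the ceiling, stood at log2 0.44 ± 0.17 (adjusted p = 0.168). Pomp, the chaperone that helps build new proteasome cores, rose 2.75-fold (log2 1.46 ± 0.17, adjusted p = 0.0204). Psme4, which encodes the other activator PA200, fell (log2 -0.84 ± 0.15, adjusted p = 0.0348), and Psme3, which encodes the nuclear activator PA28γ, stood at -0.14 ± 0.15 (adjusted p = 0.607). The proteasome inhibitor gene Psmf1 was dim and stood at -0.36 ± 0.48 (adjusted p = 0.671). The count of 3 core subunits was 5 on values as deposited. It fell without lower-dose replicate 1 or 2, and these calls were lost without any of the other 4 arrays. Nearly all calls over the whole array were lost there too. Pomp and Psme4 did not both keep their calls under any of these omissions. Over all 15 alternative settings Pomp lost its call in 5 and Psme4 in 8.

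The inducible subunits were also set against these counterparts within each array. The log2 ratio of Psmb8 to Psmb5, relative to its control mean, was 0.47 and 0.62 at the higher dose, against -0.18 and 0.18 in the controls (difference 0.54, two-sided exact permutation p = 0.333, the smallest possible). The ratio of Psmb9 to Psmb6 was 1.27 and 1.76 at the higher dose, against -0.31 and 0.31 in the controls (difference 1.51, exact p = 0.333), and the ceiling on Psmb6 may have enlarged it. The ratio of Psmb10 to Psmb7 was 0.57 and 0.09 at the higher dose, against 0.12 and -0.12 in the controls. These arrays overlapped (difference 0.33, exact p = 0.667), and the difference was 0.09 without higher-dose replicate 1.

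**Figure D4:**
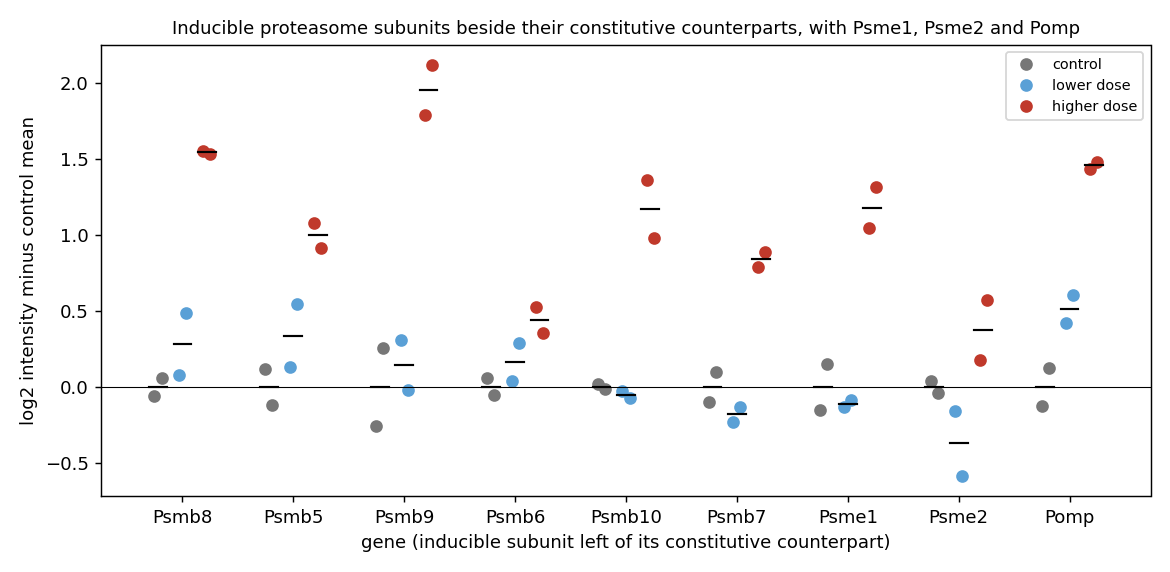
Log2 normalized intensity minus the control mean (y axis) for each inducible proteasome subunit beside its constitutive counterpart, with Psme1, Psme2 and Pomp (x axis); points are the 2 arrays of each group and bars are group means. Higher-dose points of Psmb8 and Psmb9 lie above those of Psmb5 and Psmb6, and those of Psmb10 lie nearest to their counterpart Psmb7.

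Other genes of antigen presentation, from lists of known pathway members, were also counted at the higher dose, where 5.55% of all probes rose and 5.06% fell. In lists this short, counts of 0 or 1 are near those shares. Of 8 class I loading and trimming genes, 0 rose and 0 fell in limma (median log2 -0.39). They included the chaperone Canx (-0.72 ± 0.19, adjusted p = 0.0708, and -0.09 ± 0.17, adjusted p = 0.773, by its other probe), the disulfide isomerase Pdia3 (-0.72 ± 0.26, adjusted p = 0.144) and the peptidases Lnpep (-0.57 ± 0.20, adjusted p = 0.14) and Tpp2 (-0.42 ± 0.20, adjusted p = 0.231). Class I and class II chains were hardly covered. Of 17 class I and related molecules listed, only Mr1 (-0.42 ± 0.23, adjusted p = 0.301) and Cd1d1 (-0.19 ± 0.27, adjusted p = 0.695) are named among the probes used here. Of 9 class II genes, 1 was measured: a probe named H2AA, matched to H2-Aa through a synonym, stood at 0.27 ± 0.16 (adjusted p = 0.325). H2-K1, H2-D1, H2-Ab1 and Mif are not named among these probes.

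Around Cd74, 1 of 11 genes for its processing and its receptor function rose and 0 fell (median log2 0.19), a share close to the 5.55% of all probes that rose. This was Ddt, a relative of the cytokine Mif that also binds the Cd74 receptor (3.33-fold, log2 1.74 ± 0.27, adjusted p = 0.0262). Ctss, the protease that makes the last cuts in the invariant chain, stood at 0.65 ± 0.20 (adjusted p = 0.105), and the thiol reductase Ifi30 at 0.45 ± 0.15 (adjusted p = 0.119). Cd44, the signalling partner of Cd74, stood at 0.20 ± 0.16 (adjusted p = 0.472) and Cxcr4 at -0.32 ± 0.16 (adjusted p = 0.263).

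Of 19 regulators of these genes, 3 fell and 0 rose (median log2 -0.25), against 5.06% and 5.55% of all probes. Ifngr2, a chain of the interferon gamma receptor, fell by its brighter probe (-0.86 ± 0.19, adjusted p = 0.0493) and by its other probe (-1.14 ± 0.20, adjusted p = 0.0318). Rfxap, a subunit of the RFX complex on class II promoters, also fell (-1.29 ± 0.19, adjusted p = 0.0255). Ifnar1, of the type I interferon receptor, fell by its brighter probe (-1.45 ± 0.21, adjusted p = 0.0239), while its other probe stood at 0.27 ± 0.20 (adjusted p = 0.438). Rfxank, another RFX subunit, stood at -0.06 ± 0.17 by the probe counted (adjusted p = 0.851), while its other probe rose (1.17 ± 0.17, adjusted p = 0.0249). Rfxank was chosen for mention after its values were seen. The kinase Jak2 stood at -0.82 ± 0.18 (adjusted p = 0.0505), the transcription factor Irf1 at 0.49 ± 0.15 (adjusted p = 0.0979) and the class II coactivator Ciita, a dim probe, at -0.31 ± 0.25 (adjusted p = 0.483). A second Irf1 probe, near the floor of the scale, stood at -1.56 ± 0.80 (adjusted p = 0.273). The class I coactivator Nlrc5 stood at -0.00 ± 0.20 by its brighter probe (adjusted p = 0.993) and at 0.48 ± 0.25 by its other probe (adjusted p = 0.289), where the higher-dose arrays lay above both controls. Of 7 costimulators and checkpoint ligands, 2 rose and 1 fell (median log2 -0.03), against 5.55% and 5.06% of all probes. The costimulator Cd86 fell 2.54-fold (-1.35 ± 0.18, adjusted p = 0.0215), and the checkpoint ligand Pdcd1lg2 rose by both probes (1.06 ± 0.22, adjusted p = 0.0444, and 1.16 ± 0.23, adjusted p = 0.0399). Cd40 rose by its brighter probe (0.81 ± 0.16, adjusted p = 0.0423), but its other probe stood at -0.17 ± 0.18 (adjusted p = 0.577). Cd80 stood at 0.47 ± 0.20 (adjusted p = 0.201). Without either lower-dose array the regulator and costimulator counts fell. Without any of the other 4 arrays these calls and the Cd74-related call were lost, as were nearly all calls over the whole array.

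**Figure D5:**
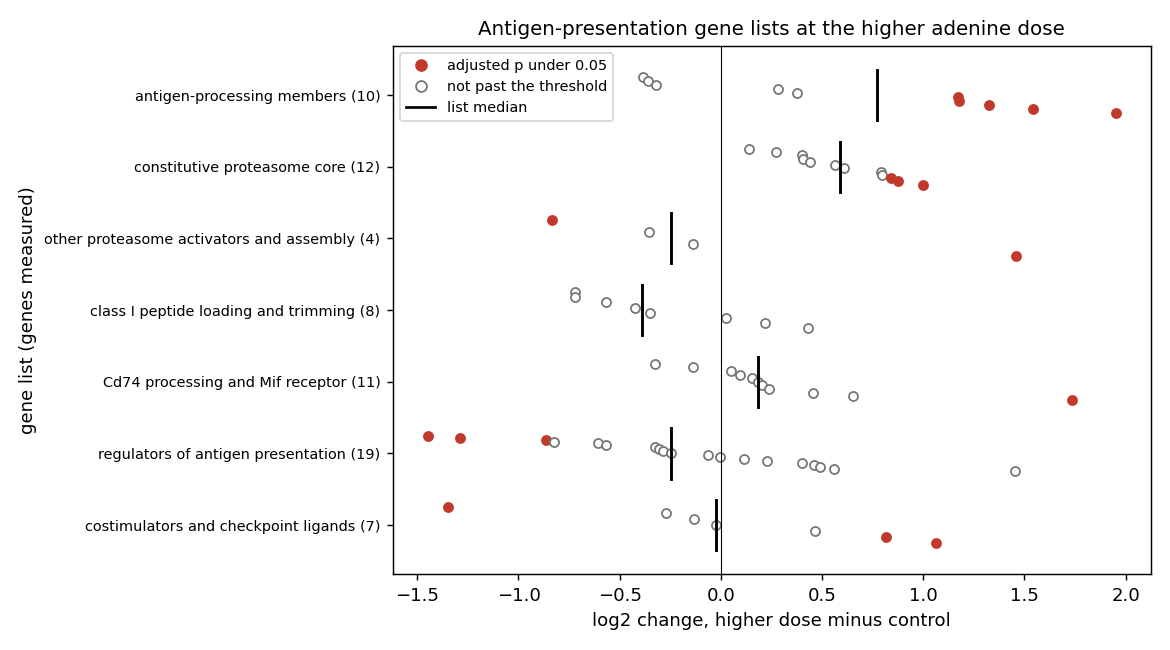
Log2 change at the higher dose minus control (x axis) of each measured gene in 7 lists (y axis, number of genes measured in brackets); filled points passed an adjusted p of 0.05 and bars are list medians. The 10 antigen-processing genes divide into 5 filled points above log2 1.17 and 5 open points between -0.38 and 0.37.

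At the lower dose 0 of the 10 genes passed in limma, where 0.00757% of probes rose and 0.00378% fell, and the median log2 change over the genes was -0.08. At an unadjusted p under 0.05, Cd74 alone of the 10 genes differed, in each of its 3 probes, against 6.36% of all probes. It stood at log2 -0.48 ± 0.17, -0.61 ± 0.18 and -1.06 ± 0.34 (adjusted p = 0.764 for each), in the direction opposite to the higher dose. The values were negative in all 15 alternatives for each probe, but several of these leave the log2 value unchanged by construction. Leaving out 1 array gave log2 -0.64 to -0.32, -0.74 to -0.48 and -1.41 to -0.70. The lower-dose arrays lay below both controls in 4 of 10 genes (Cd74, Tap2, Psmb10 and Psme2) and above both in 1 (Psmb8), against 16.6% and 18.5% of all probes. The remaining changes ranged from log2 -0.37 for Psme2 to 0.28 for Psmb8. On values as deposited the median of all probes shifted by log2 0.22 in this comparison, and B2m, Tap1, Psmb10 and Psme1 then read 0.086, 0.042, 0.099 and 0.067, all below that shift.

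Between the doses, the same 5 genes were higher at the higher dose and 0 were lower, against 6.78% and 6.95% of probes (1792 higher and 1837 lower, but 1127 and 2965 on values as deposited). The higher-dose arrays lay above both lower-dose arrays in 7 genes and below both in 3 (Tap1, Tap2 and Tapbp), against 28.5% and 30.7% of all probes. This comparison shares its higher-dose arrays with the one against control. Cd74 differed by 3.49-fold, 3.67-fold and 4.32-fold in its 3 probes (log2 1.80 ± 0.17, 1.87 ± 0.18 and 2.11 ± 0.34), and all 3 passed (adjusted p = 0.018, 0.018 and 0.0253). Psmb9 differed by log2 1.81 ± 0.25 (adjusted p = 0.0217), Psme1 by 1.29 ± 0.19 (adjusted p = 0.0225), Psmb8 by 1.26 ± 0.19 (adjusted p = 0.0232) and Psmb10 by 1.22 ± 0.18 (adjusted p = 0.023). Psme2 stood at 0.75 ± 0.23 (adjusted p = 0.0922). Tap1, Tap2 and Tapbp stood at -0.24 ± 0.23, -0.11 ± 0.15 and -0.38 ± 0.20 (adjusted p = 0.521, 0.655 and 0.261). These 5 calls rest on all 6 arrays. Fits without any 1 of them lost these calls and nearly all calls over the whole array.

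The 10 genes are mostly short. The median genomic span was 5.35 kb over the 10 genes, against 19.3 kb over 17708 genes with a span. Across those genes, which are not independent, Spearman's rho between span and change was -0.196 at the higher dose and 0.0407 at the lower dose. With each array's trend on span removed, all 5 genes still passed at the higher dose, at log2 1.21 for Cd74, 1.36 for Psmb8, 1.80 for Psmb9, 0.99 for Psmb10 and 0.99 for Psme1.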

How the data were processed

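RNA was read on 6 single-colour Phalanx mouse OneArray microarrays. What the authors deposited is a linear intensity for each probe. The submitters' processing notes name RMA, which gives equal distributions on a log scale, whereas these values are linear with unequal medians, so they were treated as not normalized. How background and repeated spots were handled is not stated.

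Arrays were quantile-normalized, values under 1 set to 1, and log2 taken. With limma 3.58.1 (R 4.3.3), 26423 probes on all 6 arrays were fitted by lmFit with a mean for each group, leaving 3 residual degrees of freedom, and tested two-sided by eBayes at a Benjamini-Hochberg adjusted p of 0.05 over all probes. Figures used Python 3.11.15 and matplotlib 3.10.9. On simulated data for the higher-dose comparison (26423 probes, 200 changed), 0% of log2 changes of 1 and 72.5% of log2 changes of 2 were recovered, with 0 and 13 false calls. In the data 2803 probes were called, which makes the adjusted threshold less strict than in the simulation. The recovered shares therefore do not carry over to the data.

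The platform annotation, which is old, names 20377 probes with 1 symbol, none with several, and leaves 6046 unnamed; 2126 symbols were updated by a unique synonym in RefSeq. The probe with the highest mean log2 intensity stood for a gene in list counts. Named genes were every member, fixed pathway genes and the up to 4 genes of each list with the smallest p. The members, lists and tests were chosen with earlier results of these data known. Promoter windows came from RefSeq (GRCm38.p6) and matched 8 of 10 genes; those of the rest are not used here. Same-numbered arrays were checked for pairing: their deviations correlated at 0.0326, 0.313 and -0.226 between groups, and the numbers were not taken as pairs in the main fit. The highest, 0.313, was between control and higher dose. The check does not settle whether same-numbered arrays share a replicate effect, so a fit with a replicate block is given below.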

Additional observations from a re-analysis of the deposited data

How the results depend on the processing

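The precision of every value is limited by having 2 arrays in each group. The higher-dose count against control (5 of 10 genes) held on values as deposited, with arrays scaled to equal medians, among probes above the median, with log2(value + 16), a trended prior, array weights and the span trend removed. It was 3 with only the groups compared in the fit and between 0 and 3 when 1 array was left out. With the replicate number as a replicate block it was 0, where calls over the whole array were 11. The log2 changes were unchanged, as they must be in a balanced design. The adjusted p of the 5 genes lay between 0.0517 and 0.0552. The higher-dose count against the lower dose (5) was 0 with only the groups compared and 0 in each fit without 1 array. The lower-dose count was 0 throughout. Fits with fewer arrays and the fit with the replicate block have 2 residual degrees of freedom, not 3.

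Some values near 0 changed sign. On values as deposited, lower-dose B2m read 0.086, Tap1 0.042, Psmb10 0.099 and Psme1 0.067. With equal medians, lower-dose Tapbp read -0.049, and with the span trend removed B2m read 0.00066 and higher-dose Nlrc5 0.14. Leaving out 1 array gave lower-dose ranges of -0.074 to 0.056 for B2m, -0.38 to 0.14 for Tap1, -0.15 to 0.26 for Tapbp, -0.11 to 0.40 for Psmb9 and -0.26 to 0.044 for Psme1. At the higher dose it gave -0.15 to 0.14 for Nlrc5, -1.06 to 0.35 for Psmf1, -0.41 to 0.039 for Cd1d1 and -0.62 to 0.0084 for Ciita. The cause was not tested.

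Over all probes, the higher-dose count of 2803 was 5524 among probes above the median, 4762 with log2(value + 16), 5000 with a trended prior, 1584 with only the groups compared, 11 with the replicate block and 5 to 1584 without 1 array. The count of 3629 between the doses was 6163, 5662, 5762, 7 and 1395 under the same 5 settings and 6 to 25 without 1 array. The lower-dose count of 3 ranged from 0 to 9. The alternatives for pathway lists, their genes and the ratios were chosen after seeing the data. The count of 3 constitutive core subunits ranged from 0 to 7 over them, that of 3 regulators from 0 to 8, that of 3 costimulators from 0 to 3, that of 2 other activators from 0 to 2, that of 1 Cd74-related gene from 0 to 3 and that of 0 loading genes from 0 to 1.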
